A study of Homo sapiens with 4 samples.

Results

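The transcripts of 10 subunits of Polycomb repressive complex 2 (PRC2) were followed in HAP1 cells that differed in BAP1. The 10 genes, EZH1, EZH2, SUZ12, EED, JARID2, AEBP2, PHF1, MTF2, PHF19 and RBBP7, were taken by symbol, whatever their values, from the 57820 genes counted, and all 10 passed the filter on low counts that left 15136 genes. HAP1 is a near-haploid human line derived from the chronic myeloid leukaemia line KBM-7, and RNA was sequenced from untreated cells. The dKO genotype lacked RING1A and RING1B, the paralogous ubiquitin ligases of PRC1 that ubiquitylate histone H2A on lysine 119. The tKO genotype lacked RING1A and RING1B and also BAP1, the deubiquitinase that removes this mark. Each genotype had 2 libraries, which the study's methods describe as independent biological replicates. Both groups therefore shared the loss of RING1A and RING1B, and the comparison asked whether removing BAP1 changed PRC2 subunit transcripts in cells without these ligases. In the methods, BAP1 and RING1A were disrupted by inserting a STOP cassette and selecting clones, and RING1B KO cells were bought. Whether the 2 libraries of a genotype came from separate clones is not given in the sources used here, so the p-values measure the spread between these libraries.

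PRC2 methylates histone H3 on lysine 27, a mark that accompanies the silencing of developmental genes. EZH2 or its paralog EZH1 carries the catalytic SET domain, and activity requires SUZ12, the scaffold, and EED, which binds the methylated histone tail. RBBP4 or its paralog RBBP7 binds histones within the same core. Accessory proteins divide the complex into alternative forms, PRC2.2 with JARID2 and AEBP2, and PRC2.1 with 1 of the Polycomb-like proteins PHF1, MTF2 or PHF19. In dividing cells EZH2 transcription is known to depend on E2F factors, whereas EZH1 is the better known form of non-dividing tissues.

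The promoters of several of these genes carried a motif of the E2F type. The promoter, here 250 bases before to 50 bases after the RefSeq transcription start on GRCh38.p14, was found by symbol for 10 of 10 subunit genes, and was searched on both strands for the words TTTCCCGC, TTTCGCGC, TTTGCCGC and TTTGGCGC. The words were chosen after these promoters had been read, so the counts describe these promoters and carry no test. The 10 subunit genes had 14 promoters, and a gene with several was counted when any of them held a word. A word was present at 6 of 10 subunit genes, against 3.99% of the 27305 genes with a promoter and 6.62% of the 10960 tested genes with one. It was also present at 9 of the 16 proliferation genes with a promoter, and at 0 of 4 other PRC2 partner genes. The word was absent at the other 4 subunit genes and the other 7 proliferation genes. The 6 windows are shown so that the matches and their surroundings can be read, with the word, or its reverse complement, in capitals and each window read 5′ to 3′ on the strand of its gene.
EZH1: gcggggttttgGCGGCAAAtgacagtagtg
EZH2: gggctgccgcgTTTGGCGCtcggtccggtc
SUZ12: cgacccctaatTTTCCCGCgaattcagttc
AEBP2: caaggcgacgtTTTGCCGCgatccccctgc
MTF2: accggcagtccGCGGGAAAccaaaatggcg
PHF19: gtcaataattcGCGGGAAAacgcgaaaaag

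On GRCh38 these windows lay at chr17:42745137-42745166 on the minus strand for EZH1, chr7:148884272-148884301 on the minus strand for EZH2 and chr17:31936807-31936836 on the plus strand for SUZ12. Those of AEBP2, MTF2 and PHF19 lay at chr12:19440438-19440467 on the plus strand, chr1:93079277-93079306 on the plus strand and chr9:120877322-120877351 on the minus strand. The EZH2 word began at base 2 of the transcript and that of MTF2 at base 6, whereas those of EZH1, AEBP2, PHF19 and SUZ12 lay 115, 150, 152 and 189 bases before the start. No word was in the windows of EED, JARID2, PHF1 or RBBP7, which says only that these letters were absent there. The 14 subunit promoters were also rich in CpG, with a median of 35 per promoter and a range of 16 to 54. The median was 25 over promoters of tested genes and 14 over all promoters. The matches are a description of sequence, and binding was not measured here.

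The libraries held 16054590 to 18455410 reads assigned to genes. CPM of tested genes are counts scaled to the TMM-adjusted library size. The limit taken for a count of 0, 3 counts, was 0.163 to 0.187 CPM on unadjusted library totals. The targeted gene gave 2046 and 2010 counts for BAP1 in dKO and 158 and 107 in tKO, a log2 difference (tKO minus dKO) of −3.77 ± 0.19 (SE, limma adjusted p = 0.0065), in the direction of the labels. RING1, the gene of RING1A, had 12 to 17 counts in every library, and RNF2, the gene of RING1B, stayed at 68.2 to 86.1 CPM, so RNF2 RNA alone did not show the RING1B KO. The line's fusion partners BCR (20.6 to 34.0 CPM) and ABL1 (22.2 to 63.0 CPM) were present, while the haematopoietic markers SPI1, HBG1 and CD3E were at 0 in all 4 libraries. The epithelial markers summed to 19.2 to 24 CPM on unadjusted totals, nearly all from KRT18, with EPCAM at 0. VIM, on chromosome 10, stood at 266 CPM in tKO 1 against 475 to 518 in the other libraries, and SETD2, on chromosome 3, at 92.8 in tKO 2 against 154 to 182. No subunit gene lies on either chromosome.

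None of the 10 subunit genes passed the test, which called 2 of 15136 genes, BAP1 and SERPINB9, or 0.0132%. SERPINB9, a granzyme B inhibitor, had 79 and 77 counts in dKO and 0 and 0 in tKO. A call needed a limma adjusted p below 0.05 and an absolute log2 difference above 1. Without tKO 1 or tKO 2 the count over all genes was 480 or 175, without dKO 1 or dKO 2 it was 0, and 0 subunit genes were called in each case. No subunit gene had an unadjusted p below 0.05, against 3.55% of all genes. The groups did not overlap for 1 of the 10, PHF1, against 31.7% of all genes. The 95% interval of the log2 difference lay inside −1 to 1, a change of less than 2-fold either way, for 10 of 10 subunit genes and for 78.3% of all genes. These intervals are not adjusted for the number of genes, and all genes were not matched to the subunits in level. In bulk RNA, less RNA per cell and fewer expressing cells cannot be told apart.

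The log2 differences of the 10 genes ran from −0.13 (MTF2) to 0.09 (PHF1), with 8 below 0 and 2 above. This split turned with 1 library, to 3 below and 7 above without dKO 1 and to 4 below and 6 above without tKO 2. Their median was −0.03 against 0.00 over all tested genes, and their median absolute difference was 0.05 against 0.12. Of all tested genes, 44.6% had a larger absolute difference than any subunit. Intervals were also narrower, with a median width of 0.55 on the log2 scale against 0.77. By mean CPM, PHF1 lay at the 23.4 percentile of tested genes and the other subunits between 64.4 and 98.3. All tested genes were not matched to the subunits in level, so these comparisons do not show that the subunits were unusually stable. The subunits as a group thus sat close to 0 in this contrast, with PHF1, the lowest in counts, having the widest interval at 1.08.

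**Figure D1:**
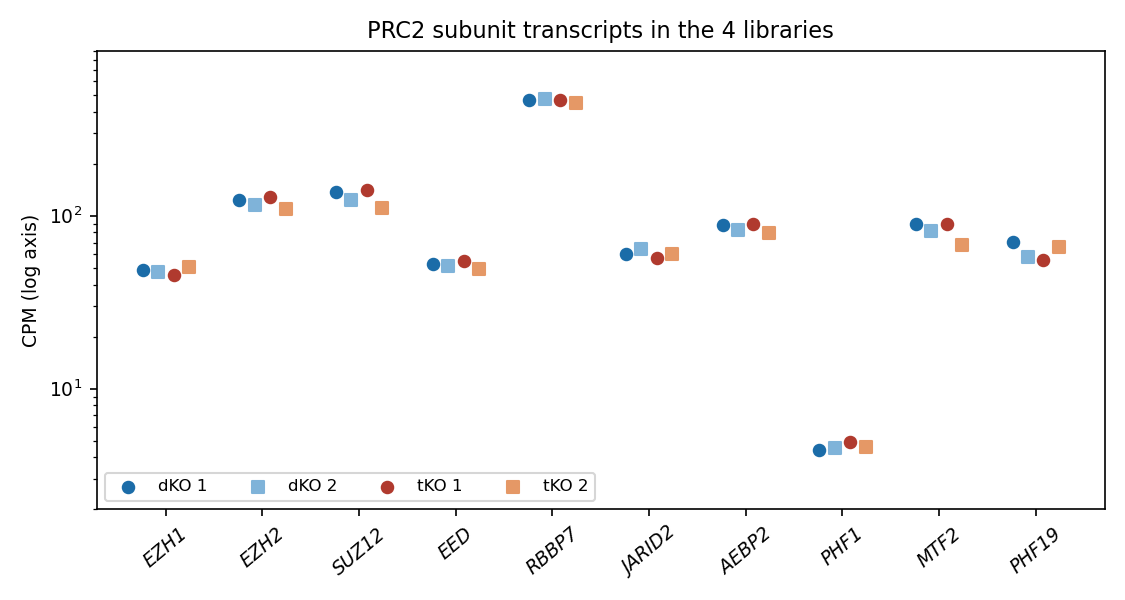
TMM-scaled CPM (log axis) of the 10 PRC2 subunit genes with 1 point for each of the 4 libraries, blue for dKO and red or orange for tKO. RBBP7 stands at 451 to 471 CPM and PHF1 at 4.42 to 4.93, and the genotypes overlap for 9 of the 10 genes.

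Of the catalytic paralogs, EZH2 (ENSG00000106462.6, GRCh37 chr7:148504349-148581413, minus strand) had 124 and 115 CPM in dKO and 128 and 110 CPM in tKO. The tKO libraries enclosed both dKO values. Means were 120 ± 6.42 (SD, n = 2) and 119 ± 12.9 CPM, the log2 difference was −0.01 ± 0.11 (SE) and its interval ran from −0.28 to 0.26 (limma adjusted p = 0.997). EZH1 (ENSG00000108799.8, chr17:40852293-40897067, minus strand) had 48.8 and 47.1 CPM in dKO and 45.5 and 50.8 in tKO. Here too the dKO values fell between those of tKO, and the log2 difference was 0.00 with an interval from −0.28 to 0.28 (limma adjusted p = 0.999). Within tKO the paralogs differed in opposite directions, with tKO 2 the lowest library for EZH2 and the highest for EZH1, whereas within dKO both were lower in dKO 2.

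The balance of the paralogs was compared per length, since a longer gene collects more reads. Per kilobase of the union of its exons, EZH2 was 1.65- and 1.59-fold above EZH1 in dKO and 1.83- and 1.41-fold in tKO. The log2 ratio was 0.697 ± 0.0404 (SD) in dKO and 0.683 ± 0.267 in tKO, so the genotypes overlapped (exact two-sided permutation test, p = 1, adjusted p = 1 over 5 ratios and shares). With 2 against 2 libraries this test cannot go below 0.333. The size of the ratio depended on the length used, because the union of EZH2 exons is 10774 bases and its canonical transcript 2654, while EZH1 has 6988 and 4633. Per kilobase of canonical transcript EZH2 was 4.45, 4.28, 4.93 and 3.79-fold above EZH1 in dKO 1, dKO 2, tKO 1 and tKO 2. EZH2 was above EZH1 in every library on either scale.

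SUZ12 (ENSG00000178691.6, chr17:30264026-30328057, plus strand), the scaffold of the core, had 137 and 124 CPM in dKO and 141 and 111 CPM in tKO. The 2 tKO libraries were the highest and the lowest of the 4. The log2 difference was −0.06 ± 0.14 (SE), with an interval from −0.39 to 0.27 (limma adjusted p = 0.996). The sign was not stable, since the difference was 0.11 without tKO 2, 0.01 without dKO 1, −0.14 without dKO 2 and −0.24 without tKO 1 (limma adjusted p = 0.237 to 1). A transcribed near copy, SUZ12P1, had 341 and 323 counts in dKO and 329 and 292 in tKO, against 1789 to 2518 counts for SUZ12. Only uniquely mapped reads were counted, so reads that map equally to both were dropped and the SUZ12 level is uncertain to that extent.

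EED (ENSG00000074266.13, chr11:85912254-85989855, plus strand), the reader of the methylated tail, had 52.7 and 51.5 CPM in dKO and 54.8 and 49.2 CPM in tKO. The dKO libraries lay within the tKO pair. Its log2 difference was 0.00 to 2 decimals, with an interval from −0.28 to 0.27 (limma adjusted p = 0.999).

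RBBP7 (ENSG00000102054.13, chrX:16857406-16888485, minus strand), a histone-binding subunit that other chromatin complexes also use, was by far the most abundant, at 469 and 471 CPM in dKO and 470 and 451 CPM in tKO. The dKO libraries and tKO 1 lay together and tKO 2 was lower. The log2 difference was −0.03 ± 0.08 (SE), with the narrowest interval of the 10, −0.23 to 0.17 (limma adjusted p = 0.996). RBBP7 overlaps TXLNG on the other strand, and counting was by strand.

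RBBP4, the paralog of RBBP7 in the same position of the core, had 406 and 416 CPM in dKO and 426 and 427 CPM in tKO. The groups did not overlap, as for 31.7% of all genes, with a log2 difference of 0.05 ± 0.08 (SE, limma adjusted p = 0.996). Per kilobase of exon union, RBBP7 was 1.49- and 1.46-fold above RBBP4 in dKO and 1.42- and 1.36-fold in tKO, log2 ratios of 0.560 ± 0.0194 and 0.478 ± 0.0424 (SD). The ratio was lower in both tKO libraries, a log2 difference (tKO minus dKO) of −0.0824 with exact permutation p = 0.333, the smallest possible here, and 0.833 adjusted over 5. It ran from −0.112 without tKO 1 to −0.0524 without tKO 2. On the canonical length the ratio was 3.65 to 3.99-fold. RBBP4 overlaps another gene and lost reads when strand was ignored, so its level is uncertain.

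**Figure D2:**
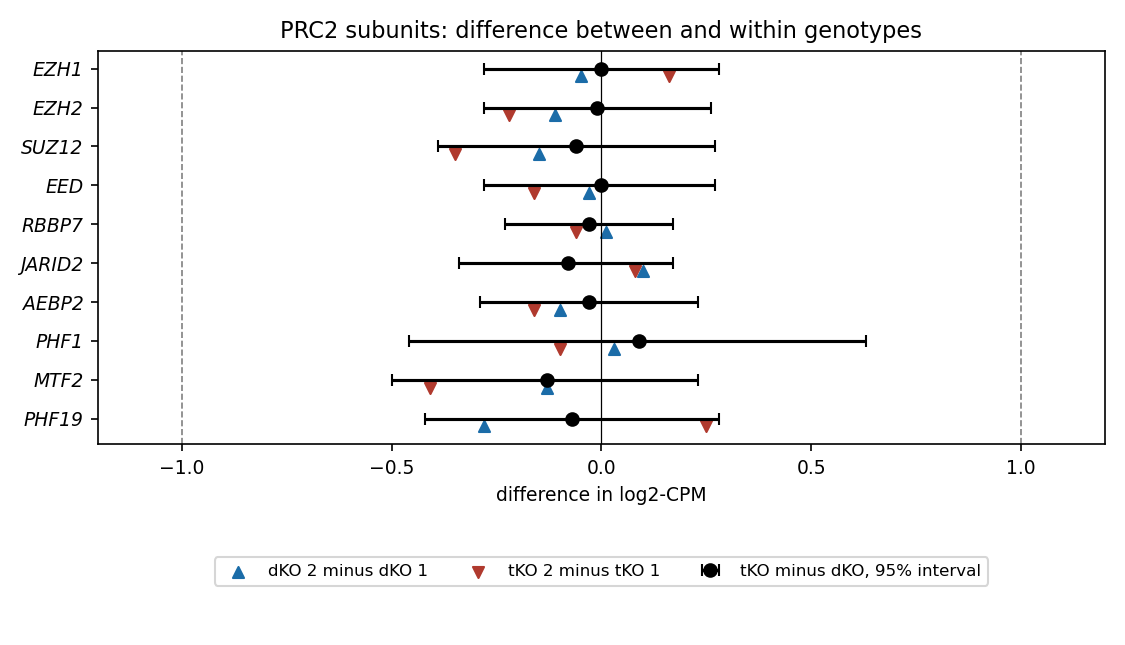
Log2 difference (tKO minus dKO) of each subunit gene with its 95% interval from limma (black), and the difference between the 2 libraries of dKO and of tKO (triangles), with dashed lines at −1 and 1. All 10 intervals include 0 and end between −0.50 (MTF2) and 0.63 (PHF1).

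In PRC2.2, JARID2 (ENSG00000008083.9, chr6:15246300-15522273, plus strand), which helps to bring the complex to chromatin, had 59.8 and 64.3 CPM in dKO and 56.9 and 60.0 CPM in tKO. The groups overlapped by one library of each. The log2 difference was −0.08 ± 0.11 (SE), with an interval from −0.34 to 0.17 (limma adjusted p = 0.996), and it stayed below 0 (−0.14 to −0.03) whichever library was left out. AEBP2 (ENSG00000139154.10, chr12:19556979-19873735, plus strand), a zinc finger protein that stabilises the complex, had 88.9 and 82.9 CPM in dKO and 89.1 and 79.8 CPM in tKO. The tKO pair again enclosed the dKO pair, and the log2 difference was −0.03 ± 0.11 (SE, interval −0.29 to 0.23, limma adjusted p = 0.996).

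Among the Polycomb-like proteins of PRC2.1, which bind CpG-rich DNA, MTF2 (ENSG00000143033.13, chr1:93544792-93604636, plus strand) had 89.3 and 81.5 CPM in dKO and 89.7 and 67.3 CPM in tKO. Only tKO 2 stood below the others, and tKO 1 was the highest. The log2 difference was −0.13 ± 0.15 (SE), with an interval from −0.50 to 0.23 (limma adjusted p = 0.996). Without tKO 1 it was −0.34 (limma adjusted p = 0.0562), and without tKO 2 it was 0.07 (limma adjusted p = 0.944), so the direction rested on 1 library.

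PHF19 (ENSG00000119403.9, chr9:123617929-123657174, minus strand) had 70.3 and 57.8 CPM in dKO and 55.7 and 66.2 CPM in tKO. Each genotype had 1 high and 1 low library. The log2 difference was −0.07 ± 0.14 (SE, interval −0.42 to 0.28, limma adjusted p = 0.996). PHF1 (ENSG00000112511.13, chr6:33378176-33384230, plus strand), which overlaps CUTA on the other strand, was the lowest subunit, at 4.42 and 4.52 CPM in dKO and 4.93 and 4.58 CPM in tKO. These values rest on 81, 82, 80 and 74 counts, for which counting error alone is 11.2% of a library's value. Both tKO libraries were above both dKO libraries, but the log2 difference of 0.09 ± 0.23 (SE) had an interval from −0.46 to 0.63 (limma adjusted p = 0.996).

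As shares of the summed CPM per kilobase of the 3 Polycomb-like genes, MTF2 took 56.0% and 57.9% in dKO and 60.7% and 50.2% in tKO. PHF19 took 39.5% and 36.8% in dKO and 33.8% and 44.2% in tKO. MTF2 thus led in every library, with the smallest gap to PHF19 in tKO 2, and for both genes the genotypes overlapped (exact permutation p = 1). PHF1 took 4.55% and 5.28% in dKO and 5.48% and 5.61% in tKO, a difference of 0.629 percentage points without overlap. The exact permutation p was 0.333 (adjusted 0.833), and this design cannot give a smaller one. That difference was 0.265 without dKO 1 and 0.994 without dKO 2. The PHF1 shares rest on 74 to 82 counts, for which counting error alone is 11.2% of a library's value. The sum of the 3 genes, set against JARID2 plus AEBP2 on the same scale, was 1.19- and 1.06-fold in dKO and 1.12- and 1.06-fold in tKO, a ratio chosen after the values were seen and not tested.

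**Figure D3:**
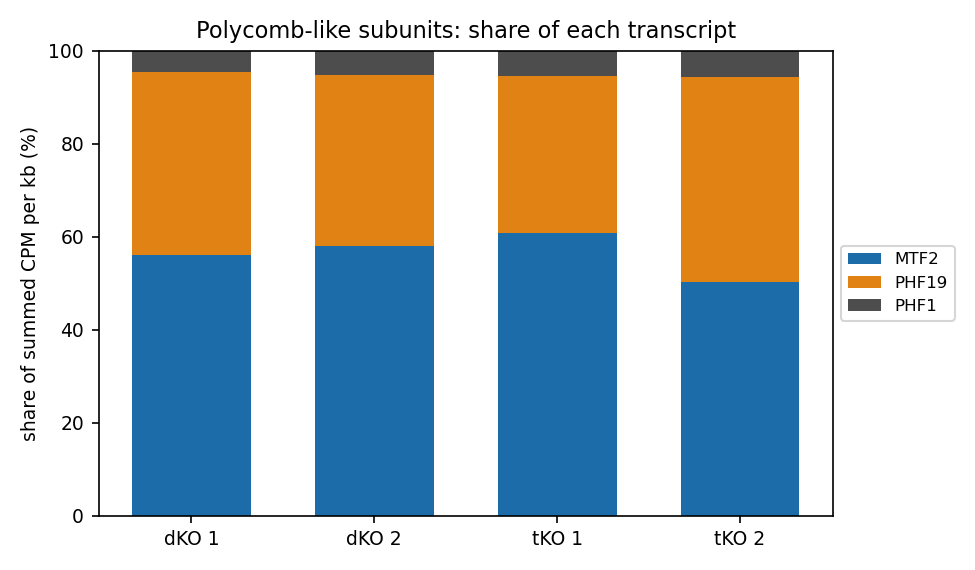
Share (%) of PHF1, MTF2 and PHF19 in their summed CPM per kilobase of exon union, by library. MTF2 holds 50.2 to 60.7% and PHF1 4.55 to 5.61%.

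Ordered by level per kilobase of exon union (mean ± SD over the 4 libraries), RBBP7 led at 63.3 ± 1.26 CPM per kilobase, followed by SUZ12 at 19.6 ± 2.11, MTF2 at 13.9 ± 1.77, AEBP2 at 12.6 ± 0.677 and EZH2 at 11.1 ± 0.772. JARID2 stood at 9.64 ± 0.486, PHF19 at 9.47 ± 1.05, EED at 7.44 ± 0.334, EZH1 at 6.87 ± 0.323 and PHF1 at 1.28 ± 0.0613. The ranges overlapped for 5 neighbouring pairs, MTF2 with AEBP2, AEBP2 with EZH2, EZH2 with JARID2, JARID2 with PHF19 and EED with EZH1, and only 1 pair overlapped without tKO 2. RBBP7 was thus above the other subunits and PHF1 below them in all 4 libraries, while the ranges overlapped in the middle of the order. Library by library, AEBP2 exceeded EZH2 and EZH2 exceeded JARID2 in 4 of 4, MTF2 exceeded AEBP2 and EED exceeded EZH1 in 3 of 4, and JARID2 exceeded PHF19 in 2 of 4. Among all tested genes RBBP7 lay at the 96.3 percentile of this level and PHF1 at the 22.1, with the other 8 between 57.6 and 84.0.

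The middle of the order also moved with the length. Per kilobase of canonical transcript the levels were 204 ± 4.06 (SD) for RBBP7, 45.0 ± 3.13 for EZH2, 28.5 ± 3.08 for SUZ12, 24.9 ± 1.12 for EED, 20.1 ± 2.56 for MTF2 and 15.0 ± 1.66 for PHF19. AEBP2 was at 14.6 ± 0.786, EZH1 at 10.4 ± 0.487, JARID2 at 10.0 ± 0.506 and PHF1 at 2.04 ± 0.0974 CPM per kilobase. RBBP7 stayed first and PHF1 last, whereas EZH2 went from the fifth place to the second and EED from the eighth to the fourth. On this scale RBBP7, EZH2, SUZ12 and EED had higher means than the 5 accessory genes, but EZH1, also a core subunit, stood below MTF2, PHF19 and AEBP2.

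**Figure D4:**
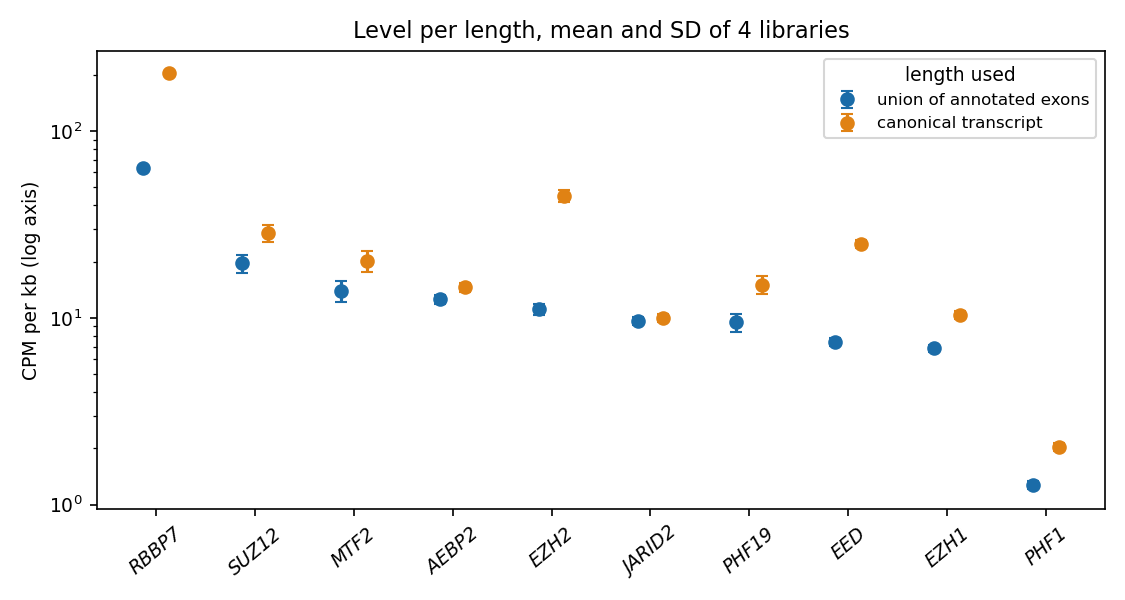
CPM per kilobase (log axis) of the 10 subunit genes, as mean and SD of the 4 libraries, by the union of exons (blue) and by the canonical transcript (orange). RBBP7 is first and PHF1 last on both scales, and EZH2 and EED stand higher in the order by canonical transcript.

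Within a genotype the subunits were also close. The median absolute log2 difference between the 2 libraries was 0.10 for the subunits against 0.14 for all genes in dKO, and 0.16 against 0.20 in tKO. No subunit differed by over 0.3 between the dKO libraries, where 21.2% of all genes did and PHF19 came nearest at 0.28. In tKO, SUZ12 and MTF2 did, at 0.35 and 0.41, against 35.0% of all genes. The tKO pair was thus the wider one for the subunits as for all genes. Here too all genes were not matched to the subunits in level.

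**Figure D5:**
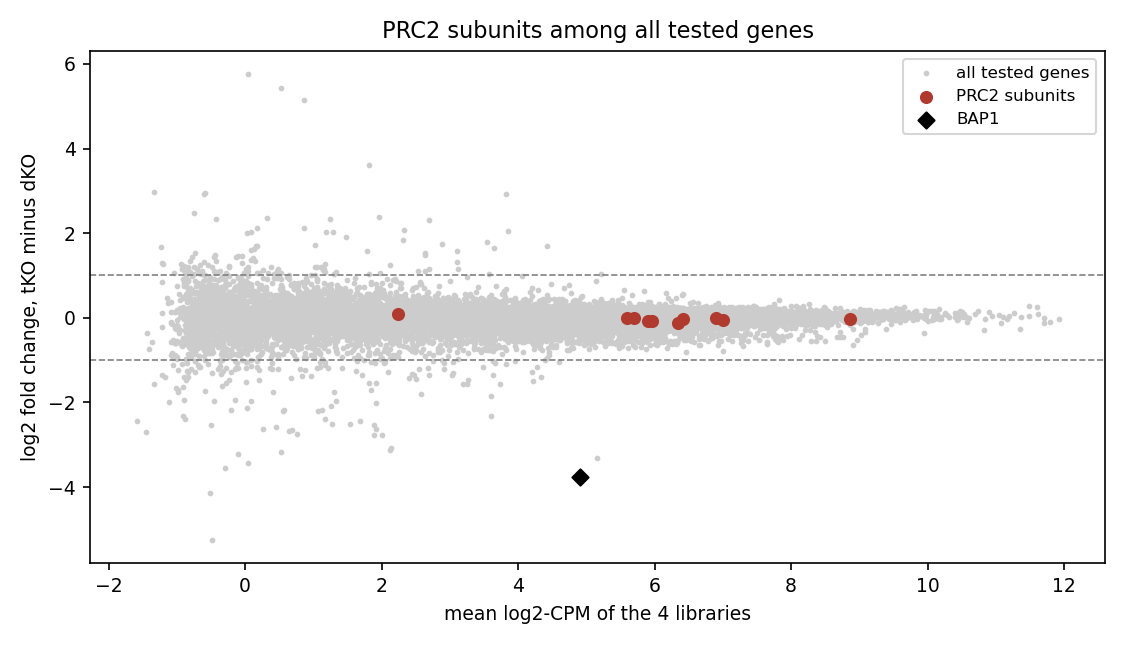
Log2 difference (tKO minus dKO) against mean log2 CPM for the 15136 tested genes, with the 10 subunit genes in red, BAP1 as a black diamond and dashed lines at −1 and 1. The subunits lie between −0.13 and 0.09 over their whole range of levels.

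The other PRC2 partners were read from a list of 5 genes, of which 4 were matched and 3 tested, 0 of them called. LCOR, which with LCORL gives rise to PRC2-associated proteins of PRC2.1, had 92.7 and 91.3 CPM in dKO and 82.6 and 72.2 CPM in tKO, a log2 difference of −0.25 ± 0.11 (SE, limma adjusted p = 0.996). LCORL had 36.7 and 43.8 CPM in dKO and 29.4 and 30.7 CPM in tKO, a difference of −0.41 ± 0.14 (SE, limma adjusted p = 0.996). Both were lower in each tKO library than in each dKO library, without passing the test. RBBP4 also separated but was higher in tKO, and the groups did not overlap for 31.7% of all genes. LCORL had an unadjusted limma p below 0.05, as did 3.55% of all genes. LCORL also had more reads on the other strand than on its own. On unstranded counts the LCORL difference was −0.24. LCOR lies on chromosome 10 (chr10:98592011-98755713), as does VIM (chr10:17270240-17279592). LCOR was lowest in tKO 2 and VIM in tKO 1, and whether the levels of these genes share a cause was not tested. The LCOR difference was −0.35 without tKO 1 and −0.16 without tKO 2. EZHIP, an inhibitor of PRC2, had 6 and 7 counts in dKO and 3 and 10 in tKO and was not tested.

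Genes that act on or beside the H3K27 mark gave no call either. Of 7 H3K27 demethylases and H3K36 methyltransferases tested, 0 were called, with a median log2 difference of 0.01 and a range of −0.35 to 0.03. The lowest values were −0.35 ± 0.28 (SE) for SETD2, low in tKO 2 alone, and −0.07 for NSD3. SETD2 lies on chromosome 3, where some other genes were also low in tKO 2. In tKO 1 and tKO 2, ACAA1 had 787 and 369 counts and ACTR8 619 and 301, but ABHD6 had 187 and 215. The cause was not tested. Of 19 proliferation genes tested, 0 were called, 8 lay above 0 and 11 below, with a median of −0.03, and the extremes were the mitotic cyclin CCNB1 at 0.14 and the replication clamp PCNA at −0.12.

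Of 20 textbook PRC2 target genes, 11 were tested and 0 called, 6 with a difference above 0 and 5 below, with a median of 0.00. HOXD13, a limb patterning factor, had 39.8 and 38.7 CPM in dKO and 52.9 and 55.6 CPM in tKO, a log2 difference of 0.47 ± 0.11 (SE, limma adjusted p = 0.996). It was higher in both tKO libraries without passing the test, and the groups did not overlap for 31.7% of all genes. With 1 library left out, the HOXD13 difference ran from 0.43 (without tKO 2) to 0.50 (without tKO 1). CDKN2B, a cell cycle inhibitor, followed at 0.25. The lineage genes SOX17, WNT1, FOXA2, NEUROG1, MYOD1, TBXT, PAX3 and NKX2-5, 8 of the 20, were at 0 counts in all 4 libraries, which allows up to 0.187 CPM in the shallowest. GATA4, also not tested, had 6 and 8 counts in dKO and 4 and 23 in tKO.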

How the data were processed

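Poly(A)-selected, stranded RNA libraries of 2 dKO and 2 tKO cultures were analysed. The authors trimmed, aligned and counted the reads on GRCh37, and deposited raw counts per gene for each library. The submitters' processing notes name Trim Galore 0.4.4, cutadapt 1.12 and STAR 2.5.2b. The reverse-strand column was used, and rows naming no gene, 27.3 to 28.7% of each column, were left out. Genes above 0.5 CPM in at least 2 libraries were kept, TMM-scaled with edgeR 4.0.16 and tested in R 4.3.3 with limma 3.58.1 (trend, log2 CPM, prior count 2, genotype only), with Benjamini-Hochberg adjustment over all tested genes. A call needed an adjusted p below 0.05 and an absolute log2 difference above 1. Gene positions and lengths came from a GENCODE annotation lifted to GRCh37, which is not the release used for counting, and promoters from RefSeq (GRCh38.p14). A symbol was found for 97.5% of tested genes. All 10 subunits were named, with the targeted genes, the other partners and the 2 largest differences of each list. EPOP could not be matched and is not analysed here. Members and lists were chosen with earlier results of these data known. The fit was tested on simulated data. The printed intervals of log2 differences are limma's and rest on the spread between libraries, whereas floors of counts cover counting error only. Alternatives included DESeq2 1.42.0, edgeR's quasi-likelihood test, voom, other filters, scalings and lengths, unstranded counts, a replicate block and leaving out each library.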

Additional observations from a re-analysis of the deposited data

Results flagged for a closer look

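For AEBP2 and RBBP7, reads on the strand that the main counts do not use were above the limit that a count of 0 allows in tKO, and higher in CPM in each tKO library than in each dKO library. AEBP2 had 10 and 10 such reads in dKO and 15 and 17 in tKO, or 0.545, 0.551, 0.923 and 1.05 CPM. RBBP7 had 118 and 114 in dKO and 119 and 112 in tKO, or 6.43, 6.28, 7.32 and 6.93 CPM. These genes were picked for that separation, and these differences were not tested. The share of all genes with such a separation on that strand was not computed. In the main counts the groups did not overlap, in either direction, for 31.7% of all genes. Other subunit genes also had such reads without that separation, EZH2 the most of them with 29 and 46 in dKO and 52 and 21 in tKO. The other strand of RBBP7 holds TXLNG.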

How the results depend on the processing

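The subunit genes called numbered 0 under every alternative run, and their smallest adjusted p was 0.0562 (MTF2 without tKO 1). Over all genes the calls, 2 in the analysis as reported, numbered 25 with DESeq2, 13 with the replicate block, 1 each with edgeR's quasi-likelihood test, CPM above 5, unstranded counts and without chromosomes 3 and 10, and 0 with no filter, and 0 to 480 when 1 library was left out. Same-numbered libraries did not deviate together (correlation 0.057 over 15136 genes), so the block pairs a number only, and it changed no subunit's call. The EZH1 difference turned from 0.00 to −0.01 with no filter, and to 0.00 on the other side of 0 with library totals and without chromosomes 3 and 10. Leaving out 1 library gave ranges of −0.07 to 0.08 for EZH1, −0.12 to 0.10 for EZH2, −0.24 to 0.11 for SUZ12, −0.08 to 0.07 for EED, −0.11 to 0.05 for AEBP2, −0.34 to 0.07 for MTF2 and −0.21 to 0.07 for PHF19, so their signs are not fixed, with a lone library assumed to vary like the other pair. Neighbours in level that overlapped numbered 1 to 5 without 1 library. The mean log2 EZH2 to EZH1 ratio was 1.36 with the longest and 2.12 with the canonical transcript, and that of RBBP7 to RBBP4 was 1.12 and 1.94, and 1.00 with unstranded counts. PHF1 was not tested at CPM above 5. Apart from the lengths, the cause of these shifts was not tested. With 2 libraries a group, the data did not exclude differences inside the printed intervals, which are not limits of detection.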
